A study of Mus musculus with 4 samples.

Results

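The genes described here are 38 genes of glycolysis and the response to low oxygen in mouse haematopoietic colony cells. They were chosen by name, with earlier results of these data known. Of the 38 genes, 35 were read by an array probe set that carries only that gene's symbol, out of 19938 genes measured in this way. The list holds 22 genes of the glycolytic route (19 measured), 13 targets of the hypoxia-inducible factor (HIF) that lie outside glycolysis (all measured), and Mif, Hif1a and Selenbp1. Gapdh was represented only by probe sets shared with other genes, Eno1 and Gpi1 by none in the annotation used, and these 3 genes were not analysed here.

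Gene expression had been profiled on 4 Affymetrix arrays, 1 per group. Colonies grown from short-term haematopoietic stem cells gave the ST-HSC mock and ST-HSC CreER arrays, and colonies from long-term stem cells, which repopulate the blood for longer after transplantation, gave the LT-HSC mock and LT-HSC CreER arrays. All cells had a C57BL/6 background and had received either a mock control or CreER, a Cre recombinase joined to part of the oestrogen receptor so that a ligand controls it. They then formed colonies in methylcellulose with serum, stem cell factor, IL-3, IL-6 and GM-CSF. The series concerns cells that express the leukaemia fusion MLL-ENL conditionally. Whether the mock cells carry the conditional allele, how CreER was activated, how many animals were used and the oxygen level of the cultures are not stated in the labels. The RNA is that of colony cells grown from stem cells, not of stem cells. The pan-leukocyte and myeloid genes Ptprc, Spi1, Itgam and Mpo were above the signal floor on all 4 arrays, and the oestrogen receptor gene Esr1 was higher with CreER by 0.79 log2 units in LT-HSC colonies and 1.08 in ST-HSC colonies. Its probe set may or may not read the construct, which was not tested.

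Glycolysis splits glucose into pyruvate, first spending and then regaining ATP, and lactate dehydrogenase lets the route run without oxygen. When oxygen is low, HIF-1, a pair of HIF-1 alpha (Hif1a) and ARNT, is no longer marked for destruction by the prolyl hydroxylases EGLN and switches on glucose transporters, most glycolytic enzymes and genes for mitochondrial turnover and vessel growth. HIF-1 alpha is controlled largely as a protein, so its transcript is no measure of its activity. Haematopoietic stem cells are known for their reliance on glycolysis and on HIF-1 alpha.

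The values are log2 levels, and a difference of 1 is 2-fold. A gene was counted as different between 2 arrays when it differed by at least 1.5-fold (0.58 log2 units) and lay, on the higher array, above the signal floor, the median level of single-symbol probe sets on that array (8.07 to 8.13). Each group has 1 array, so none of the 4 pairwise differences has a replicate check or a test, and precision is limited by the number of arrays. Each comparison also shares an array with 2 others. Of the 35 measured members, 32 were above the floor on at least 1 array; Eno2, P4ha2 and Adm were under it on all 4, at levels of 6.71 to 7.40.

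The members were mostly highest in mock-transduced ST-HSC colonies and lowest in mock-transduced LT-HSC colonies. They were chosen with earlier results of these data known, so the shares of all genes give a scale and no test. Of the 32 members past the floor, 20 were highest on the ST-HSC mock array (62.5%, against 27.2% of 10411 genes) and 23 were lowest on the LT-HSC mock array (71.9%, against 28.1%). Both held for 17 members (53.1%, against 8.91% of all genes), which include Pfkl, Tpi1, Pdk1, Ak4, Bnip3, Egln3 and Selenbp1. Higd1a is in these counts but passed the floor on ST-HSC mock alone, so that its place there was fixed by the filter. Among the 31 members whose mean level lay above the mean floor, which leaves it out, 19 were highest on ST-HSC mock (61.3%, against 27.6% of 9918 genes), 22 were lowest on LT-HSC mock (71%, against 28.1%) and 16 were both (51.6%, against 8.96%). The spread was modest, with a median range over the 4 arrays of 0.45 log2 units and a largest range of 1.04. It was under 0.3 for 10 members, among them Hk1 (0.11), Aldoa (0.18) and Ldha (0.21), and past 1.5-fold for 11. Ranges were not counted over all genes, so these counts do not set the members apart from other genes.

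**Figure D1:**
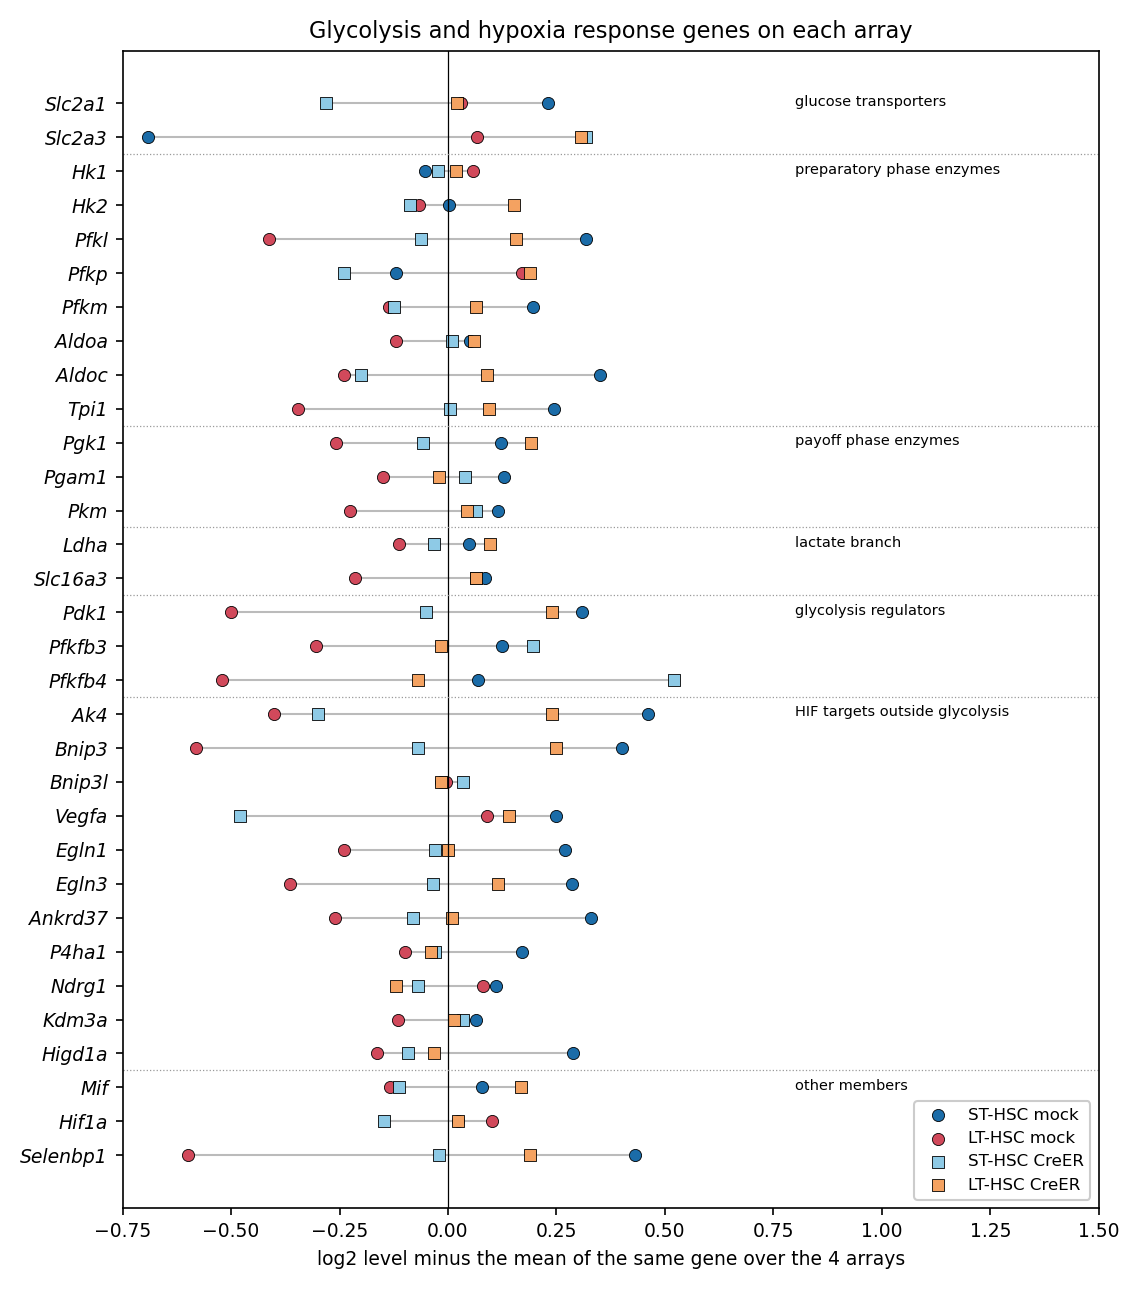
Level of the 32 members past the signal floor on each of the 4 arrays, as the log2 level minus that gene's own mean over the arrays (horizontal axis); each point is 1 array and the grey line joins the lowest and highest. The LT-HSC mock array is the lowest point for 23 genes and the ST-HSC mock array the highest for 20, while Slc2a3 is lowest on ST-HSC mock.

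Glucose enters through the transporters GLUT1 and GLUT3, encoded by Slc2a1 and Slc2a3, and these genes did not share a pattern. Slc2a3 stood at 11.50 on ST-HSC mock, 12.26 on LT-HSC mock, 12.51 on ST-HSC CreER and 12.50 on LT-HSC CreER. It was thus low on 1 array, ST-HSC mock, and it was the 1 member counted as higher in both comparisons against that array, by 1.01 for ST-HSC CreER and by 0.76 for LT-HSC mock. Slc2a1 stood at 12.83, 12.63, 12.32 and 12.62 in the same order of arrays. It was highest on ST-HSC mock and lowest on ST-HSC CreER, with a difference of -0.50 between these that did not reach 1.5-fold.

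Among the enzymes of the preparatory phase, which turn glucose into triose phosphates, Pfkl, Aldoc and Tpi1 were at least 1.5-fold lower in mock-transduced LT-HSC than ST-HSC colonies. Pfkl, the liver-type subunit of phosphofructokinase, was at 11.14 on ST-HSC mock, 10.41 on LT-HSC mock, 10.76 on ST-HSC CreER and 10.98 on LT-HSC CreER. The triose phosphate isomerase gene Tpi1 was at 13.23, 12.64, 12.99 and 13.08 in that order, and the aldolase C gene Aldoc at 11.64, 11.05, 11.09 and 11.38. For all 3 the LT-HSC mock array was the lowest and the ST-HSC mock array the highest. Aldoc lay just past the threshold (-0.59) and did not reach it after cyclic loess normalization. Pfkl was 1.49-fold higher with CreER in LT-HSC colonies, just short of the threshold, which it passed after quantile or cyclic loess normalization.

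Of the other phosphofructokinase subunit genes, Pfkp did not share the order of Pfkl. Pfkp, the platelet type, stood at 11.53 (mock) and 11.55 (CreER) on the LT-HSC arrays against 11.24 and 11.12 on the ST-HSC arrays, so both LT-HSC arrays were above both ST-HSC arrays. Pfkm, the muscle type, had the order of Pfkl over a narrower range, at 9.28 on ST-HSC mock, 8.95 on LT-HSC mock, 8.96 on ST-HSC CreER and 9.15 on LT-HSC CreER. The hexokinase genes Hk1 and Hk2, whose products trap glucose in the cell, ranged over 0.11 and 0.24, and the aldolase A gene Aldoa over 0.18.

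The payoff phase and the lactate branch differed by less than 1.5-fold in every comparison, and for each of their 5 genes past the floor CreER minus mock was above 0 in LT-HSC colonies and below 0 in ST-HSC colonies. Pgk1, the first ATP-forming enzyme of the route, was at 13.26 on ST-HSC mock, 12.88 on LT-HSC mock, 13.08 on ST-HSC CreER and 13.33 on LT-HSC CreER. Pgam1, Pkm (pyruvate kinase), Ldha (lactate dehydrogenase A) and Slc16a3 (the lactate exporter MCT4) were also lowest on LT-HSC mock, and with CreER they were higher by 0.13, 0.28, 0.21 and 0.28 in LT-HSC colonies. In ST-HSC colonies the same 4 genes differed by -0.09, -0.04, -0.08 and -0.02, which is close to the median of -0.03 over all genes. Pgk1 was read by 3 probe sets, each with a CreER difference of 0.45 in LT-HSC colonies, and Pgam1 and Mif have 3 each too; the arrays may not separate these genes from near-identical copies.

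Among the regulators of the route, Pdk1 and Pfkfb4 differed by at least 1.5-fold in some comparison and Pfkfb3 in none. Pdk1, the kinase that shuts pyruvate out of the mitochondrial pyruvate dehydrogenase complex, stood at 10.20 on ST-HSC mock, 9.39 on LT-HSC mock, 9.84 on ST-HSC CreER and 10.13 on LT-HSC CreER. It was lower by 0.82 on LT-HSC mock than on ST-HSC mock and higher by 0.75 (1.68-fold) with CreER in LT-HSC colonies. Pfkfb4, which sets the level of an activator of phosphofructokinase, stood at 10.69, 10.10, 11.14 and 10.55. It was higher with CreER by 0.45 in both populations and differed by -0.59 between LT-HSC and ST-HSC colonies with either transduction. Its relative Pfkfb3 was at 10.20, 9.77, 10.27 and 10.06, lowest on LT-HSC mock.

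Of the 11 HIF targets outside glycolysis past the floor, 10 were highest on ST-HSC mock and 8 were lowest on LT-HSC mock, with Higd1a in both counts; of the 18 glycolysis genes, 9 and 13 were. Bnip3, a receptor that tags mitochondria for removal, stood at 11.95 on ST-HSC mock, 10.97 on LT-HSC mock, 11.48 on ST-HSC CreER and 11.80 on LT-HSC CreER. Ak4, a mitochondrial adenylate kinase, stood at 11.10, 10.24, 10.34 and 10.88. Both were thus low on LT-HSC mock, and Ak4 was nearly as low on ST-HSC CreER. The second probe set of Bnip3 gave 0.65 and -0.42 for CreER minus mock in LT-HSC and ST-HSC colonies, beside 0.83 and -0.47 for the one used. For Ak4 the second gave 0.22 and -0.33 beside 0.64 and -0.76, and as the mean of both Ak4 differed by 0.43 and -0.54, under 1.5-fold.

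The prolyl hydroxylase genes Egln3 and Egln1, which are themselves induced by HIF and restrain it, stood at 12.13 and 10.58 on ST-HSC mock, and were lower on LT-HSC mock by 0.66 and 0.50. Ankrd37 was at 9.11, 8.52, 8.70 and 8.79 in the order above. Vegfa, the vessel growth factor gene, stood at 11.05 on ST-HSC mock, 10.89 on LT-HSC mock, 10.32 on ST-HSC CreER and 10.94 on LT-HSC CreER. It was therefore low on 1 array, ST-HSC CreER, by 0.73 against ST-HSC mock and by 0.62 against LT-HSC CreER. Bnip3l, the close relative of Bnip3, ranged over 0.06 and was the flattest member. The collagen hydroxylase gene P4ha1, the histone demethylase gene Kdm3a and the stress-induced Ndrg1 ranged over 0.27, 0.18 and 0.23, and Higd1a passed the floor only on ST-HSC mock, at 8.26. The second probe set of Higd1a was under the floor on every array, at 7.56 to 7.66.

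Of the remaining members, Selenbp1, which encodes a selenium-binding methanethiol oxidase, had the widest difference between the mock arrays. It stood at 9.19 on ST-HSC mock, 8.16 on LT-HSC mock, 8.74 on ST-HSC CreER and 8.95 on LT-HSC CreER. Its near-identical neighbour Selenbp2 had the same order, at 8.52, 7.74, 8.25 and 8.28, and the arrays may not separate the pair. Hif1a itself ranged over 0.25 (12.15, 12.23, 11.98 and 12.15), and the cytokine gene Mif was at 13.23, 13.02, 13.04 and 13.32.

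The sequences just before the start sites of 4 members counted as different between the mock arrays are shown because they bear the core letters that HIF binds. Bnip3, Egln3 and Selenbp1 were lowest on LT-HSC mock and highest on ST-HSC mock, and Pfkfb4 was highest on ST-HSC CreER. Each is the 250 bases before the RefSeq start (GRCm38.p6), written 5′ to 3′ on the gene's strand, with matches to ACGTG or GCGTG on either strand in capitals.
Bnip3, chr7:138909507-138909756, minus strand: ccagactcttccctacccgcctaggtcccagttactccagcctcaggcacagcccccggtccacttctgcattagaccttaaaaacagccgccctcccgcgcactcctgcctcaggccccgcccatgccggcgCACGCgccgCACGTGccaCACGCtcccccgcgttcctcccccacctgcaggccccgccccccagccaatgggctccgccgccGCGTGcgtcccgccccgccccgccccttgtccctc
Egln3, chr12:54203875-54204124, minus strand: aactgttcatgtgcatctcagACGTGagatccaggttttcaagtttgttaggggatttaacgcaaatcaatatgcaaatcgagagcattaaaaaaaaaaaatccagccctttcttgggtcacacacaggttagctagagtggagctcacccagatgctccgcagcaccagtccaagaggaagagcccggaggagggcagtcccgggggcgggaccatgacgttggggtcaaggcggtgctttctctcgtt
Selenbp1, chr3:94932833-94933082, plus strand: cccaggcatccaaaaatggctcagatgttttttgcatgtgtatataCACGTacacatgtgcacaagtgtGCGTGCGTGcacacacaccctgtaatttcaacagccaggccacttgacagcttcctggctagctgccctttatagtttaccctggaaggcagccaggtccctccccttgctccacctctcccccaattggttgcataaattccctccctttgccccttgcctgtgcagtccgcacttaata
Pfkfb4, chr9:108991652-108991901, plus strand: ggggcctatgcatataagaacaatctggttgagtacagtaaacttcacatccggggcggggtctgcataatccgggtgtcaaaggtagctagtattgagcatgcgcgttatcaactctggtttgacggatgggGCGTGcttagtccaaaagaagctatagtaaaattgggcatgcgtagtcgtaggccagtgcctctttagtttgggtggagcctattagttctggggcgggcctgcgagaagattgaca

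Bnip3 had 5 matches, 2 of them the overlapping strands of CACGTG, which is also the E-box letters that other factors bind. Egln3 and Pfkfb4 had 1 match each, and Selenbp1 had 3, of which 2 overlap. RefSeq promoters were found for 35 of the 38 members, 54 start sites in all, and 42 of these windows (77.8%) held a match, against 38.6% of all 32851 promoter windows of that length. ACGTG alone was in 42.6% of the member windows and 16.6% of all, and CACGTG in 11.1% and 6.02%. The member windows were richer in G and C, with a median of 61.0% against 52.4%, and the part of GC content in these shares was not tested. Windows of the same gene can overlap and share matches, as those of Ak4 and Eno1 do, and shares were not taken per gene. The members also include HIF targets by choice. Tpi1, which had the same order of arrays as Bnip3, had no match in its window.

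LT-HSC colonies with CreER had somewhat higher levels across the members. The median was 0.25 over the 31 past the floor, 26 of them above 0, while all genes had a median of -0.03 with 44.4% above 0. The glycolysis genes had a median of 0.26 (16 of 18 above 0) and the HIF targets one of 0.18 (8 of 10). In this comparison 4 members were at least 1.5-fold higher, Bnip3 (1.77-fold), Selenbp1 (1.72-fold), Pdk1 (1.68-fold) and Ak4 (1.56-fold), and none was lower. Of all 10172 genes past the floor 4.1% differed by 1.5-fold in either direction, 1.02% higher and 3.08% lower.

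ST-HSC colonies with CreER had lower levels of most members. Of the 32 past the floor, 27 were below 0, with a median of -0.19, against -0.03 over all genes. The HIF targets had a median of -0.32, with 10 of 11 below 0, and the glycolysis genes one of -0.09, with 14 of 18 below 0. Higd1a is among the 10, with a direction fixed by the filter. Without a floor the median over all 13 HIF targets was also -0.32. Ak4 (1.69-fold) and Vegfa (1.66-fold) were at least 1.5-fold lower and Slc2a3 (2.01-fold) was higher, 3 of 32 members, where 1.99% of 10047 genes differed by 1.5-fold, 1.42% higher and 0.567% lower.

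These comparisons have no array in common, so their values can be set side by side. Of the 32 members, 24 (75%) were higher with CreER in LT-HSC colonies and lower in ST-HSC colonies, as were 21.9% of 10411 genes. The 17 members highest on ST-HSC mock and lowest on LT-HSC mock (53.1%, against 8.91% of all genes) are among the 24. That order fixes both directions, so the count of 24 is largely the same observation as the count of 17. Higd1a is among the 24, and its lower level with CreER in ST-HSC colonies was fixed by the filter. The opposite order held for 2 members, Hk1 and Bnip3l, both within 0.1 of 0 in each population. A second probe set of Hk1 gave 0.1 in LT-HSC colonies and -0.01 in ST-HSC colonies, the order of the 24. Slc2a3, Pfkfb3 and Pfkfb4 were above 0 in both, and Slc2a1, Ndrg1 and Hif1a below 0 in both. The CreER effect in LT-HSC colonies minus that in ST-HSC colonies had a median of 0.40 over the members and -0.01 over all genes. It was past 1.5-fold upwards for 11 members, in order of size Ak4 (1.40), Bnip3 (1.30), Selenbp1 (1.23), Pdk1 (1.10), Pfkl (0.95), Aldoc (0.88), Egln3 (0.80), Vegfa (0.78), Tpi1 (0.69), Ankrd37 (0.67) and Pgk1 (0.64), and downwards for Slc2a3 (-0.76). Over all genes 1.3% were past it upwards and 3.56% downwards. This difference takes 1 array from each group and has no test.

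**Figure D2:**
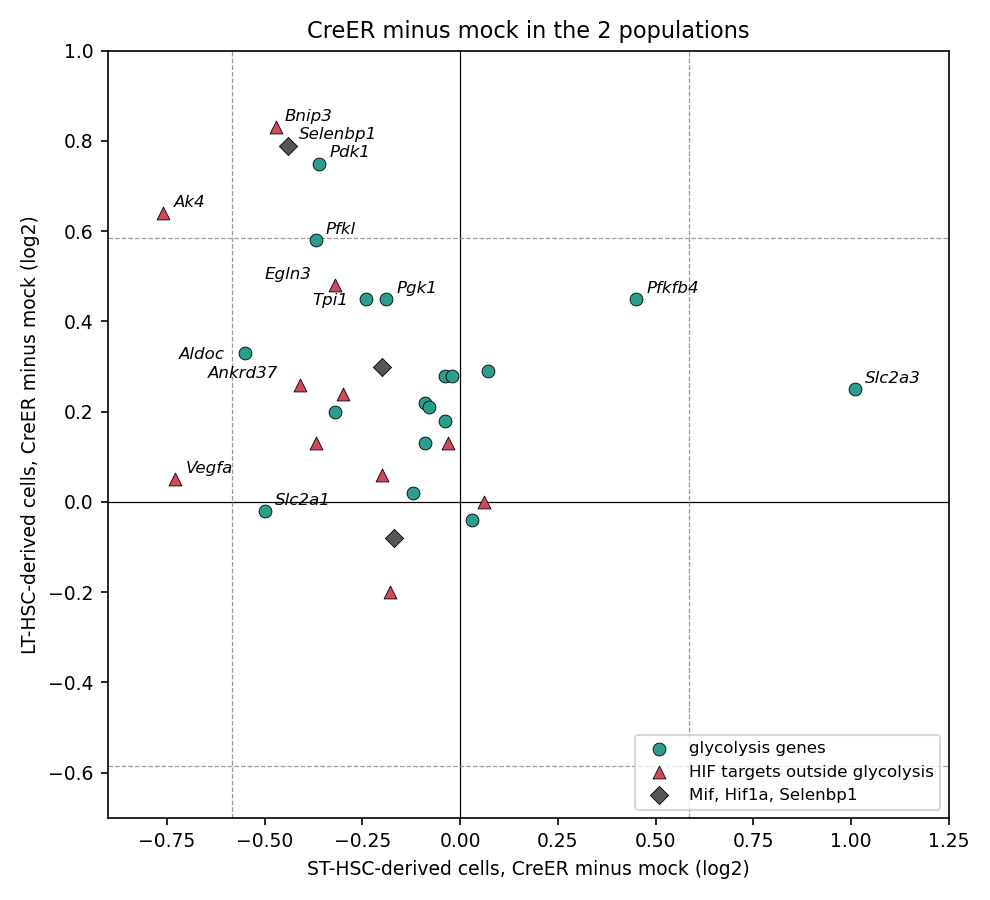
CreER minus mock on the log2 scale for the 32 members past the floor, in ST-HSC colonies (horizontal axis) and LT-HSC colonies (vertical axis); each point is 1 gene, and dashed lines mark 1.5-fold. Most points, 24 of 32, lie in the upper left part, and Slc2a3 lies far to the right at 1.01.

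Between the mock arrays, most members were lower in LT-HSC colonies. Of 32 members, 27 were below 0, with a median of -0.32 where all genes had -0.03. In all 10 were at least 1.5-fold apart, against 8.08% of 10208 genes (5.47% higher, 2.62% lower): Slc2a3 was higher, and Selenbp1 (-1.03), Bnip3 (-0.97), Ak4 (-0.85), Pdk1 (-0.82), Pfkl (-0.73), Egln3 (-0.66), Tpi1 (-0.60), Aldoc (-0.59) and Pfkfb4 (-0.59) were lower. The glycolysis genes had a median of -0.32 and the HIF targets one of -0.45. Higd1a, itself at -0.45, is in the HIF median and the 27, with a direction fixed by the filter. Without a floor the median over all 13 HIF targets was -0.27.

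Between the CreER arrays fewer members were at least 1.5-fold apart than between the mock arrays, 2 against 10. The members had a median of 0.13, with 22 of 31 above 0, where all genes had a median of -0.02 with 46.1% above 0. The 2 members (6.45%) are near the share of all 10189 genes (6.84%, 3.62% higher and 3.22% lower). Of the calls over all genes 52.9% were higher, and 41.3% after centring each array on its gene median. The glycolysis genes had a median of 0.11 and the HIF targets one of 0.06, which turned to -0.01 after the same centring. The members past 1.5-fold were Vegfa, higher by 0.62 in LT-HSC colonies, and Pfkfb4, lower by 0.59 (1.51-fold). Pfkfb4 fell short of 1.5-fold after quantile or cyclic loess normalization, and Vegfa after centring each array. 

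An additive limma model, with a term for population and one for transduction, was the one test the 4 arrays allow. It leaves 1 residual degree of freedom per gene, and since nothing in the labels says that cells came from separate animals, its p-values measure only the spread between these arrays. For CreER against mock, 0 of 32 members and 0% of 10411 genes passed at 0.05 after Benjamini-Hochberg adjustment; 2 members, Pfkfb4 and Slc2a3, had an unadjusted limma p under 0.05 and were higher, as 3.29% of all genes were, with 10.1% in either direction. For LT-HSC against ST-HSC, 1 of 32 members passed, against 6.27% of all genes (3.78% higher, 2.49% lower). It was Pfkfb4, at -0.59 ± 0.09 (SE), lower on the LT-HSC array in 2 of 2 pairs, with a limma adjusted p of 0.0307. That p ranged from 0.0222 to 0.0504 over the other settings and missed the threshold after cyclic loess normalization. Pfkp came next, at 0.36 ± 0.10 with a limma adjusted p of 0.0958. In an additive model, a CreER effect that differs between the populations enters the residual error.

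The pattern was also read in lists of related genes here, and in lists of proliferation and cell types further below, some of which shared it in part. Among 27 further HIF targets past the floor on some array, the difference of the CreER effects had a median of 0.10. It was above 0 for 21 (77.8%, against 48.9% of all genes). Past 1.5-fold upwards were Fam162a, Hilpda, Lox, Nos2 and Tfrc (18.5%, against 1.3%), and downwards none. Yet 9 of the 27 (33.3%) were higher with CreER in LT-HSC colonies and lower in ST-HSC colonies, against 75% of the members and 21.9% of all genes. A further 13 were lower with CreER in both. With CreER in LT-HSC colonies their median was -0.01, with 12 of 25 past the floor above 0. Hilpda, a lipid droplet protein gene, stood at 10.88 on ST-HSC mock, 9.70 on LT-HSC mock, 10.22 on ST-HSC CreER and 9.63 on LT-HSC CreER, low on both LT-HSC arrays. Nos2, the inducible nitric oxide synthase gene, was above the floor on ST-HSC mock at 9.56 and on ST-HSC CreER at 8.12, and under it on LT-HSC mock at 7.27 and LT-HSC CreER at 8.12, so that its CreER effect in LT-HSC colonies rests on levels under the floor. In limma's LT-HSC against ST-HSC contrast, 1 of the 27 was higher, Car12, and 1 lower, Hilpda, with adjusted p of 0.0182 and 0.0431, a share near that of all genes (6.27%). Car12 had passed the floor on LT-HSC mock alone, at 8.53, where it is highest.

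Glycolytic isoenzymes and transporters outside the list did not share the order. Of 14 past the floor, 5 had a difference of the CreER effects above 0, with a median of -0.10 and none past 1.5-fold. The glucose transporter genes Slc2a6 and Slc2a9 were higher on LT-HSC mock than on ST-HSC mock, by 0.89 and 0.76. In limma's LT-HSC against ST-HSC contrast Slc2a6 rose (adjusted p 0.038) and the ADP-dependent glucokinase gene Adpgk fell (adjusted p 0.0481). That is 1 higher and 1 lower of 14, where 3.78% of all genes were higher and 2.49% lower. The 7 pentose phosphate genes had a median of 0.01 for the difference of the CreER effects, and 23 genes of pyruvate oxidation and the TCA cycle had one of 0.15 with none past 1.5-fold. In that limma contrast none of the 7 passed, and 1 of the 23 did, against 6.27% of all genes. It was the pyruvate carboxylase gene Pcx, higher with an adjusted p of 0.04, which had passed the floor on the LT-HSC arrays alone.

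The genes of oxygen sensing themselves had a median difference of the CreER effects of -0.13, with 1 of 9 above 0. The HIF-2 alpha gene Epas1 stood at 8.25 on ST-HSC mock, 9.16 on LT-HSC mock, 8.29 on ST-HSC CreER and 7.77 on LT-HSC CreER. It was high on LT-HSC mock alone, the array on which most members were lowest. Arnt, Vhl and Egln2 differed by at most 0.34 in any of the comparisons, and in limma's LT-HSC against ST-HSC contrast 1 gene of 9 passed, against 6.27% of all genes. It was Arnt2, higher with an adjusted p of 0.0423, which had passed the floor on LT-HSC mock alone, at 8.34, where it is highest.

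**Figure D3:**
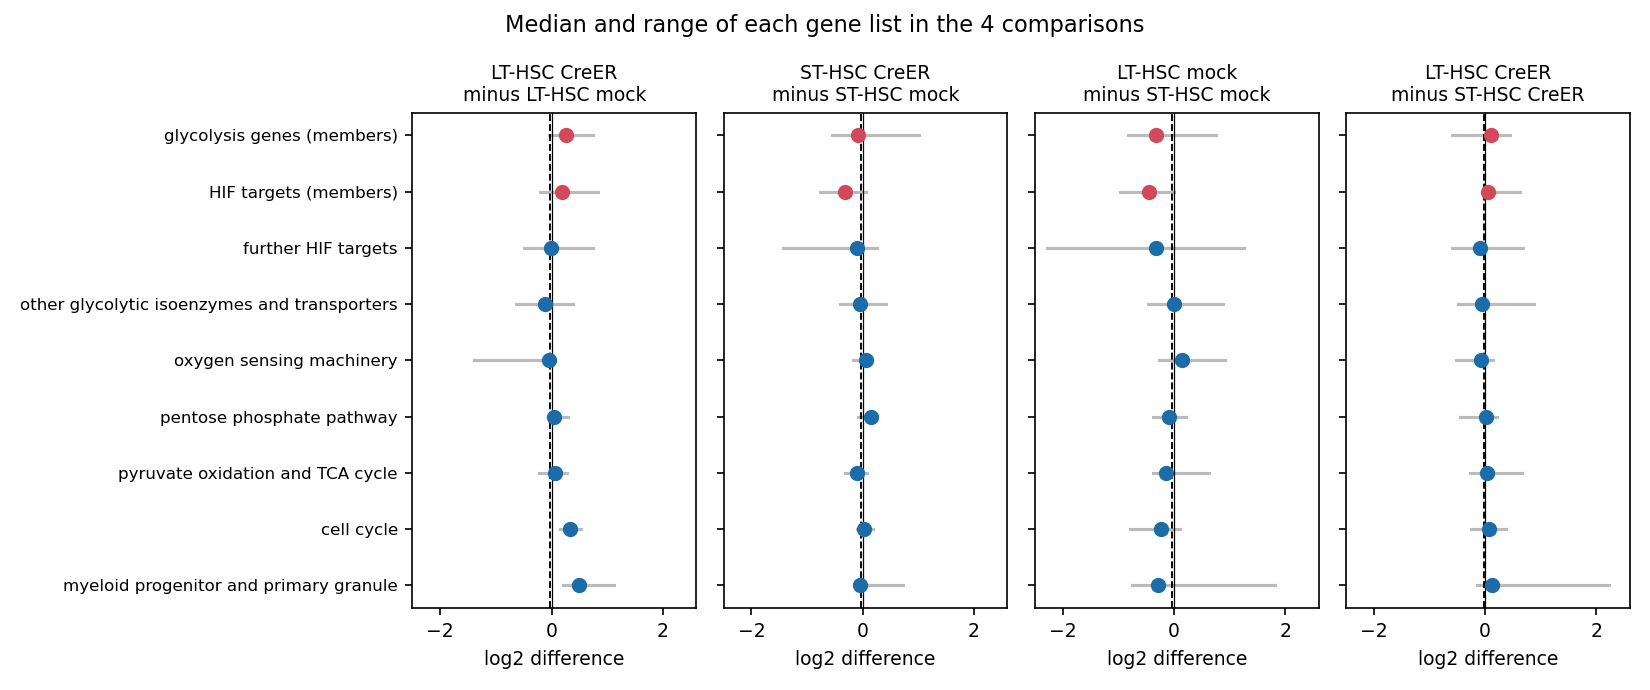
Median (point) and range (grey line) of the log2 difference over the genes of each list past the floor, in the 4 comparisons; red points are the members and blue points the other lists, and the dashed line is the median over all genes. The members' medians lie above 0 for CreER minus mock in LT-HSC colonies (0.26 and 0.18) and below 0 between the mock arrays (-0.32 and -0.45). The last median includes Higd1a, which passed the floor on ST-HSC mock alone.

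Genes of proliferation and of cell types also differed between the arrays. All 19 cell cycle genes were higher with CreER in LT-HSC colonies, with a median of 0.33, and 18 were lower on LT-HSC mock than on ST-HSC mock, with a median of -0.23; in ST-HSC colonies the CreER median was 0.03. None reached 1.5-fold in either CreER comparison, 1 (Bub1) did between the mock arrays, and limma called none in either contrast. Their summed linear level was 56660 on ST-HSC mock, 48460 on LT-HSC mock, 57710 on ST-HSC CreER and 61080 on LT-HSC CreER. The 9 myeloid progenitor and primary granule genes past the floor had medians of 0.50 for CreER in LT-HSC colonies, -0.28 for LT-HSC mock minus ST-HSC mock and -0.05 for CreER in ST-HSC colonies, and all 10 measured summed to 64100, 49950, 63600 and 70190 in that order of arrays. Between the mock arrays 7 of the 9 were lower on LT-HSC mock, with Prtn3 (-0.76) and Ms4a3 (-0.74) past 1.5-fold. Cd34 went the other way (1.82). It was under the floor on ST-HSC mock, at 7.87, so the filter fixed its direction. Mast cell and basophil genes went the other way: 13 of 15 passed the floor on LT-HSC mock and 6 on ST-HSC mock. All 13 were higher on LT-HSC mock than on ST-HSC mock, with a median of 2.74. For those under the floor on ST-HSC mock the filter fixed this direction. Without a floor all 15 were higher there, with a median of 2.39. The 15 summed to 10820, 49930, 15810 and 40540. Of 14 measured monocyte and macrophage genes, 11 were past the floor on some array, and the sums were 37050, 34820, 30670 and 23450. Of 10 measured erythroid genes 4 were past the floor on any array, with Alas2, Slc4a1 and Epb42 on none. On LT-HSC mock Gata1 (1.76), Car1 (1.34) and Klf1 (0.60) were higher than on ST-HSC mock and Tfrc was lower (-0.76). Gata1, Car1 and Klf1 passed the floor on the LT-HSC arrays alone, so the filter fixed their direction. The 7 megakaryocyte and platelet genes past the floor were all higher on LT-HSC mock, with a median of 1.20 and 5 past 1.5-fold, and between the CreER arrays they had a median of 1.32. Of 15 neutrophil genes, 11 were lower on LT-HSC mock than on ST-HSC mock, with a median of -0.14. Past 1.5-fold, Cxcr2 (1.79) and Retnlg (1.82) were higher and Fcnb (-2.39), Camp (-0.82) and Ltf (-0.61) were lower. That is 33.3% of the 15, where 8.08% of all genes differed by 1.5-fold between the mock arrays, 5.47% higher and 2.62% lower. Of 5 fibroblast and stromal genes past the floor, Thy1 (1.85) and Pdgfrb (1.23) were higher. The collagen genes Col1a1 (-0.04), Col1a2 (-0.1) and Col3a1 (-0.06) were slightly lower. Pdgfrb passed the floor on the LT-HSC arrays alone, and Dcn, Lum and Pdgfra passed it on none. In limma's LT-HSC against ST-HSC contrast 8 of the 13 mast cell and basophil genes and 5 of the 7 megakaryocyte genes rose. So did 3 of the 4 erythroid genes, 2 of the 5 fibroblast genes and 1 of the 9 myeloid progenitor genes (Cd34). In the same contrast 1 of the 15 neutrophil and 1 of the 11 monocyte genes fell. Of all genes 6.27% passed, 3.78% higher and 2.49% lower, and 1 of 15 and 1 of 11 are near that share. Among the genes that rose, Cd200r3, Il4, Gata1, Klf1, Car1 and Pdgfrb had passed the floor on the LT-HSC arrays alone, where they are high. The median difference of the CreER effects was 0.30 for the cell cycle genes, with 19 of 19 above 0. It was 0.45 for the myeloid progenitor genes, with 9 of 9 above 0, beside 0.40 for the members. For mast cell and basophil genes it was -0.99 and for monocyte and macrophage genes -0.43. Of the 19 cell cycle genes 7 (36.8%) were higher with CreER in LT-HSC colonies and lower in ST-HSC colonies, and 12 were higher in both. Of the 9 myeloid progenitor genes the counts were 6 (66.7%) and 3. The first share was 75% among the members and 21.9% among all genes. The part of these shifts in the members' differences was not tested. In such bulk RNA, fewer cells of a type and less RNA per cell cannot be told apart.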

How the data were processed

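The authors deposited log2 expression per probe set, as their range of 2.21 to 14.82 shows, for 4 arrays. They come from Affymetrix Expression Console, per the submitters' processing notes, which name neither version nor normalization. The columns had medians of 7.75 to 7.82 and were used as deposited; scale and centring beyond this are unknown. Of 35556 probe sets, 21789 had 1 gene symbol in the platform annotation, 1621 several and 12146 none. Genes with more than 1 probe set, 9 of the members, took the one with the highest mean. Pairwise differences are of 2 arrays, without test. The additive model was fitted to 10411 genes with limma 3.58.1 in R 4.3.3 and tested on simulated data. Alternatives were quantile, cyclic loess and median normalization, no floor or the 75th percentile, a mean level above the mean floor, 2-fold, an eBayes prior with a trend, an adjusted p of 0.1 and the mean of a gene's probe sets. The members and lists were chosen with earlier results of these data known. Named were all members, up to 4 genes of each further list among those counted as different, and Esr1, Kmt2a and Mllt1; Selenbp2 and other genes below the threshold were added after their values were seen. CreER minus mock in LT-HSC and ST-HSC colonies was 0.14 and 0.10 for Kmt2a and 0.16 and -0.05 for Mllt1. The CreER effects of the megakaryocyte, fibroblast and neutrophil lists had median differences of -0.22, 0.12 and -0.08.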

Additional observations from a re-analysis of the deposited data

Results flagged for a closer look

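Ak4 is the 1 member whose CreER effect was past 1.5-fold in opposite directions in the 2 populations, 0.64 in LT-HSC colonies and -0.76 in ST-HSC colonies, a difference of 1.40. Each effect is a difference of 2 arrays, and the difference between the populations was not tested. With the mean of its 2 probe sets the effects were 0.43 and -0.54, neither past 1.5-fold.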

How the results depend on the processing

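The medians kept their direction under the settings tried, except that of the HIF targets between the CreER arrays (0.06, and -0.01 after centring on the gene median). At 2-fold, the members counted as different were 0 for CreER in LT-HSC colonies, 1 for CreER in ST-HSC colonies, 1 between the mock arrays and 0 between the CreER arrays, against 4, 3, 10 and 2 at 1.5-fold; over all genes they were 89, 52, 319 and 198 against 417, 200, 825 and 697. Between the CreER arrays 1 member was left after quantile normalization, 1 after cyclic loess normalization and 1 after centring on the gene median. That centring moved the share of higher genes among those counted there from 52.9% to 41.3%. Without a floor the median of the HIF targets between the mock arrays was -0.27 against -0.45. In limma's LT-HSC against ST-HSC contrast, 0 members passed after cyclic loess normalization and 2 at an adjusted p of 0.1. The counts of members highest on ST-HSC mock (15 to 22) and lowest on LT-HSC mock (18 to 24), of members with opposite CreER effects (19 to 26) and the median difference of these effects (0.31 to 0.40) were chosen after seeing the data. Of the single-gene values, 552 moved by less than the prior SD of the limma fit (0.102) and 8 by more, among them all 4 of Ak4 with the mean of its probe sets. Weak genes lie near background, where differences shrink.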
